A study of Mus musculus with 20 samples.

Results

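The 8 genes described here encode transcription regulators that male germ cells use to pass from meiosis to spermatid formation: Mybl1, Tcfl5, Rfx2, Sox30, Crem, Fhl5, Tbpl1 and Zmynd15. They were chosen by gene symbol for what they are known to do, with earlier results of these data known. All 8 were found among the 23235 genes of the deposited table and reached the level needed for testing. The study set wild-type (WT) spermatocytes beside spermatocytes labelled Cxxc1-null; Cxxc1 is the gene of a CpG-binding subunit of the SETD1 complexes that trimethylate lysine 4 of histone H3. Spermatocytes of 3 stages (pachytene, diplotene and meiosis II) were profiled in both genotypes, which gives 6 groups with n = 2 and 12 RNA libraries. Each library was made from 500 cells sorted by flow cytometry from the testes of adult male mice on a C57BL/6 background, and no other treatment or exact age is given. The allele, the promoter of any Cre and the cells in which Cxxc1 was deleted are not given in the sources used here. Nor do the labels say that both libraries of a group came from different animals, so p-values reflect only how far these libraries spread, and part of that may be technical.

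These regulators act as a relay. A-MYB, the product of Mybl1, is a DNA-binding factor that male germ cells switch on at the pachytene stage and that drives meiotic genes and the precursors of pachytene piRNAs, the small RNAs that silence transcripts through PIWI proteins. TCFL5, RFX2 and SOX30 are DNA-binding factors of the basic helix-loop-helix, winged-helix and HMG-box families, and mice lacking any of them fail in spermatogenesis at or after meiosis. CREM, helped by the LIM-domain coactivator FHL5 (also called ACT) and by the TBP-like protein TRF2, which Tbpl1 encodes, switches on the genes of the haploid spermatid, while ZMYND15 is a repressor that keeps some of these genes off until later.

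Promoter sequences from RefSeq (build GRCm38.p6) were examined for 5 of the 8 genes, in 6 windows of 250 bases before to 50 bases after an annotated start. No window of Mybl1, Crem or Zmynd15 was searched. Since CXXC1 binds unmethylated CG dinucleotides, 3 are printed to show how far the members differ in CG content, 5′ to 3′ on the gene's own strand and with each CG in capitals. The Fhl5 window is chr4:25242803-25243102, the Tcfl5 window chr2:180642642-180642941 and the Rfx2 window chr17:56830959-56831258, all on the minus strand.
Fhl5: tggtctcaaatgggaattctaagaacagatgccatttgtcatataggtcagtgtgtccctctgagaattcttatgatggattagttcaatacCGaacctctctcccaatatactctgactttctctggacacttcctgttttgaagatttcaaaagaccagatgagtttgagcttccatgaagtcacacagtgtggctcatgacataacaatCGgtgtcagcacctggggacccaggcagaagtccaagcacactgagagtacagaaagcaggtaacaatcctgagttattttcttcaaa
Tcfl5: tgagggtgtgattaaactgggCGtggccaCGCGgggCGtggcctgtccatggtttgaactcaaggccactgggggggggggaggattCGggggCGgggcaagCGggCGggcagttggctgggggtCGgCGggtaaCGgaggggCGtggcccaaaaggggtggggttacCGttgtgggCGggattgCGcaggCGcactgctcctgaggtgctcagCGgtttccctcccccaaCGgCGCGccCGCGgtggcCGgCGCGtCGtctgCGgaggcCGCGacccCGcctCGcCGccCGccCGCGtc
Rfx2: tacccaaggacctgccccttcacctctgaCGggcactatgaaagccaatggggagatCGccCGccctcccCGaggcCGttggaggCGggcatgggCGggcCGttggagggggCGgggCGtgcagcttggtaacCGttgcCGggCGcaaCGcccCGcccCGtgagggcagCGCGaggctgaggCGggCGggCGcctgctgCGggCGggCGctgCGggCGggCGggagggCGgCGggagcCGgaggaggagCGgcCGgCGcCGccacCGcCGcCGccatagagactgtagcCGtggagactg

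The Fhl5 window holds 2 CG, and the other Fhl5 window holds 3. The Tcfl5 window holds 35 CG and the Rfx2 window 38, with 28 for Sox30 and 24 for Tbpl1. The median of all 32851 windows is 7, with quartiles of 3 and 20, so both Fhl5 windows lie at or below the lower quartile and the other 4 windows above the upper one. Motifs were searched on both strands and a match is only a description. The A-MYB motif AACTGCC was found in the Tcfl5 window alone, 142 bases before the start on the opposite strand, and 4.12% of all windows hold it. The RFX half-site GTTGCC was found in the Rfx2 window alone, 116 bases before the start, against 12.5% of all windows. The CRE half-site TGACG, which CREM binds, was found in the Rfx2 window alone, 224 bases before the start, against 20.8% of all windows. Its longer form TGACGTC, which contains that half-site, was in none of the members' windows searched and in 3.21% of all. The SOX motif ACAAT was found in the Sox30 window and at 2 places in the first Fhl5 window, against 31% of all windows. These letters overlapped each other in none of the members' windows searched.

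The targeted gene, Cxxc1, lay at 11.7 and 17.3 FPKM (fragments per kilobase of transcript, scaled to library size) in WT pachytene and at 9.19 and 9.57 in Cxxc1-null pachytene. In diplotene it lay at 13.7 and 17.6 in WT and 9.57 and 8.29 in Cxxc1-null, and in meiosis II at 12.5 and 12.8 in WT and 3.10 and 2.02 in Cxxc1-null. The Cxxc1-null libraries lay below the WT ones at each stage, but most of the signal remained before meiosis II: 9.38 ± 0.269 against 14.5 ± 3.97 FPKM in pachytene and 8.93 ± 0.906 against 15.6 ± 2.73 in diplotene (SD, n = 2). Which part of the gene was deleted is not stated, so these values do not show how much intact transcript was left. Replicates correlated at r = 0.957 to 0.976 across genes. Against the mean of WT meiosis II, Cxxc1-null diplotene replicate 2 had r = 0.891, where the remaining diplotene libraries had 0.834 to 0.849. On the second principal component, WT pachytene replicate 2 lay at 6.81, between replicate 1 (51.1) and the diplotene libraries (-57.2 to -27.7). Both are called the libraries that stand apart below. Of 10 spermatocyte markers between 8 and 10 reached 1 FPKM in both libraries of every group, with summed levels of 1104 to 5414 FPKM. Round spermatid markers were also present in every group, with sums of 168 to 885 FPKM in diplotene, 1466 to 2238 in pachytene and 2091 to 10642 in meiosis II. Sertoli markers summed to at most 27.1 FPKM before meiosis II and to 205 to 284 in it, of which Clu made up 166 to 228; markers of spermatogonia stayed at or under 40.0 FPKM, those of peritubular, endothelial and blood cells at or under 14.02, and those of Leydig cells at or under 272. Among the Sertoli markers, only Amh and Gata4 were at 0 in both Cxxc1-null pachytene libraries, and likewise in both WT diplotene libraries. In Cxxc1-null pachytene Clu lay at 18.5 and 19.0 FPKM, Aard at 6.10 and 3.98 and Cldn11 at 1.67 and 2.78. Wt1 lay at 0.587 and 0.735 FPKM there and Sox9 at 0.152 and 0.419. The zeros of Amh and Gata4 therefore do not show that Sertoli RNA was absent.

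The 8 regulators were present at very different levels. Tbpl1, Tcfl5 and Crem were the most abundant, with medians over the 12 libraries of 244, 171 and 163 FPKM, and lay above 92.3% to 95.4% of all tested genes in mean level. Rfx2 had a median of 74.999, Fhl5 31.1, Zmynd15 23.9 and Sox30 22.5 FPKM. Mybl1 was the lowest at 7.93 FPKM, near the middle of all tested genes. FPKM is scaled by transcript length, but it adds up isoforms, so the activator and repressor forms of Crem are not told apart. Zmynd15 and Fhl5 were the members that varied most, by 76.9-fold and 37.7-fold between the lowest and highest library; the other 6 varied by 1.92-fold to 4.09-fold.

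**Figure D1:**
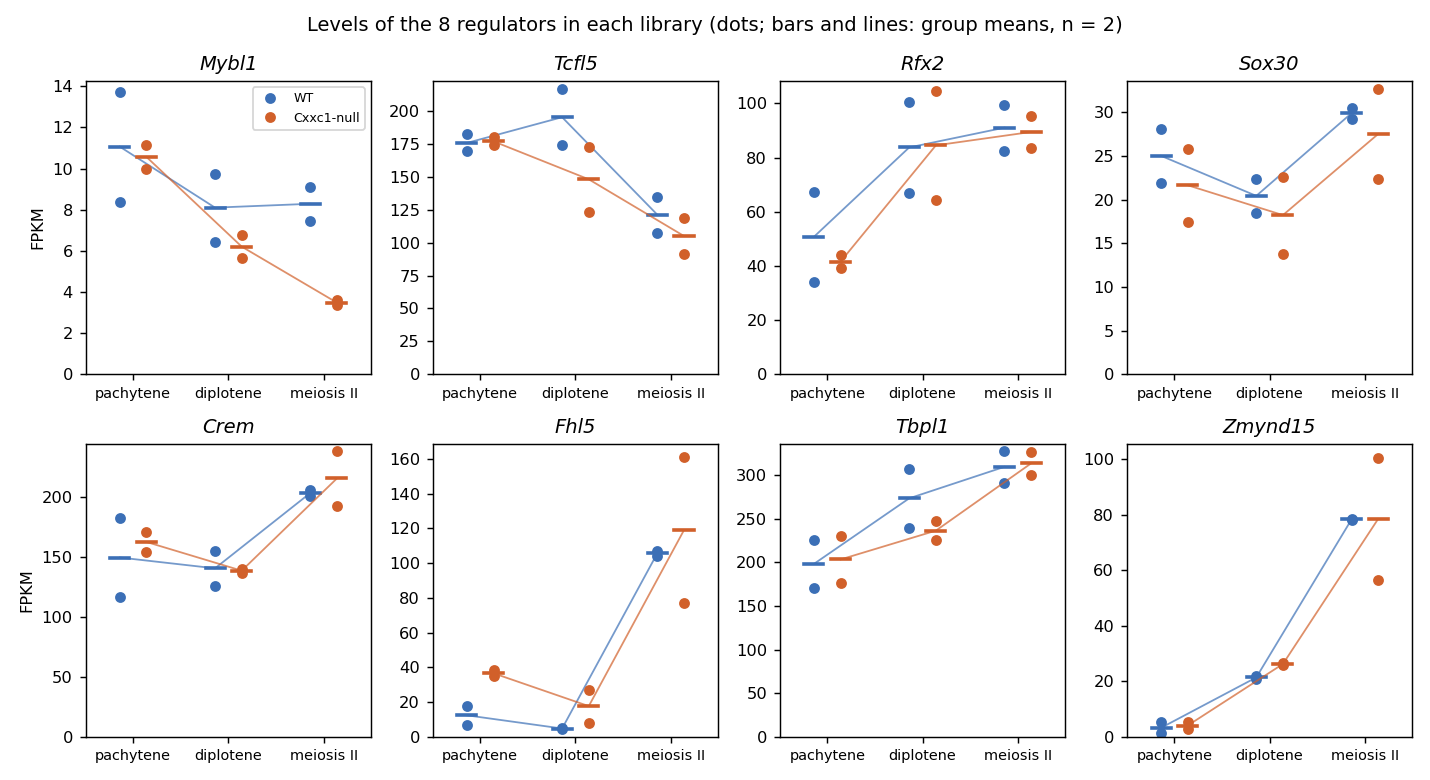
FPKM of each of the 8 regulators (y axis, linear from 0) at 3 stages (x axis) in WT (blue) and Cxxc1-null (orange) libraries; dots are single libraries, short bars and connecting lines the means of 2. Zmynd15 climbed from at most 5.41 FPKM in pachytene to at least 56.4 in meiosis II in both genotypes, Fhl5 was higher in both Cxxc1-null libraries than in both WT libraries at pachytene and diplotene, and Mybl1 was lower in Cxxc1-null meiosis II.

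The first question is how the 8 regulators changed from stage to stage. Zmynd15 rose at both steps in both genotypes, Fhl5 rose from diplotene to meiosis II in both, Tcfl5 fell at that step in WT, and no other member passed the test at any step. From pachytene to diplotene 1 of 8 members rose in WT, against 9.08% of the 12956 genes tested, and 0 fell, against 17.4%. In Cxxc1-null cells 1 of 8 rose there, against 11.9%, and 0 fell, against 17.4%. From diplotene to meiosis II 2 of 8 rose and 1 fell in WT, against 26.1% and 18.9% of all genes, and 2 rose and 0 fell in Cxxc1-null cells, against 25.3% and 18.8%. With 8 members these counts lie near the background shares. Tests here and below are from limma on log2(FPKM + 1), with Benjamini-Hochberg adjustment over all tested genes and a threshold of 0.05, and differences are given on that scale ± standard error. The steps before and after diplotene share the diplotene libraries. Marker genes changed at these steps too. From diplotene to meiosis II 10 of 10 round spermatid markers and 5 of 5 tested Sertoli markers rose in each genotype, and 5 of 10 spermatocyte markers fell. From pachytene to diplotene the median difference of the round spermatid markers was -1.09 in WT and -1.05 in Cxxc1-null cells. The part of these markers in the steps of the members was not tested.

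**Figure D2:**
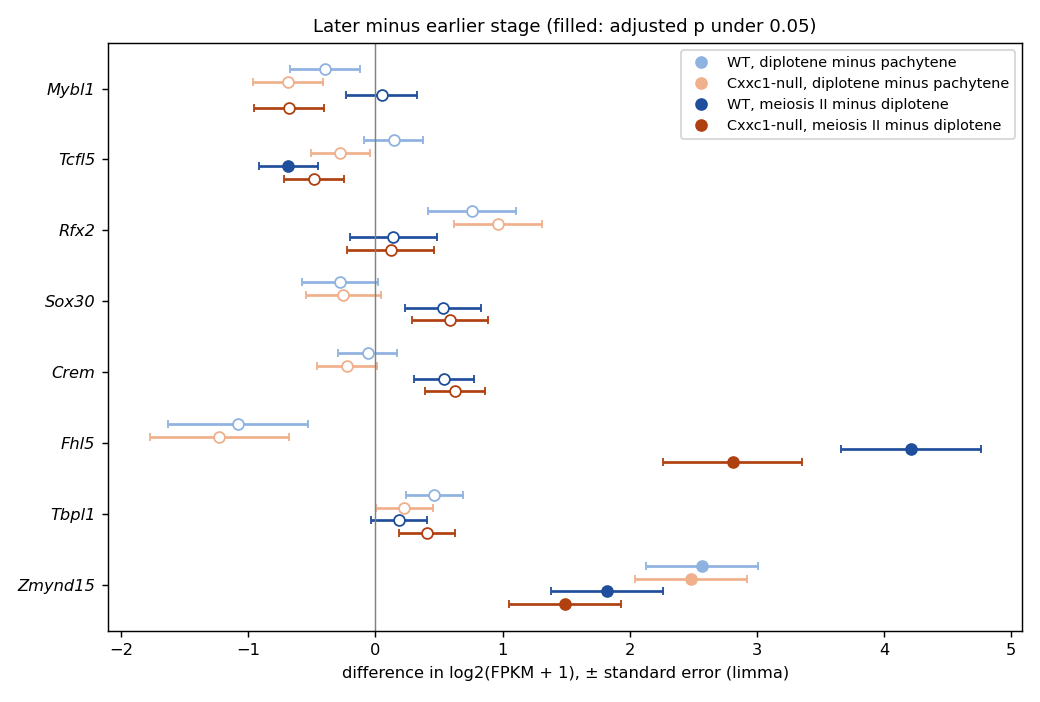
Differences in log2(FPKM + 1) between successive stages (x axis, ± standard error from limma) for each regulator, with WT in blues and Cxxc1-null in oranges and paler colours for the earlier step; filled dots have an adjusted p under 0.05. The dots of Zmynd15 are filled at both steps, those of Fhl5 at the later step only, and that of Tcfl5 for WT at the later step.

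Mybl1 did not change detectably over these stages in WT. Its levels were 13.7 and 8.39 FPKM in WT pachytene, 9.76 and 6.44 in WT diplotene, and 9.11 and 7.46 in WT meiosis II. The 3 WT groups overlap, and neither step passed the test (-0.40 ± 0.28, limma adjusted p = 0.31, and 0.05 ± 0.28, limma adjusted p = 0.91). In Cxxc1-null cells the levels were 9.98 and 11.1 FPKM in pachytene, 6.77 and 5.63 in diplotene, and 3.36 and 3.59 in meiosis II. These 3 groups do not overlap and lie in descending order, although neither step passed (-0.69 ± 0.28, limma adjusted p = 0.086, and -0.68 ± 0.28, limma adjusted p = 0.069). The first passed in 1 of 22 alternatives and the second in 5 of 22. The first passed with a replicate term within genotype (limma adjusted p = 0.028). The second passed with that term (limma adjusted p = 0.021), with a replicate term across all libraries (limma adjusted p = 0.042), under quantile normalization and without either WT pachytene library.

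Between genotypes, Mybl1 was the 1 regulator called at a single stage. In meiosis II the Cxxc1-null pair lay wholly below the WT pair, at 41.9% of the WT mean (3.48 ± 0.17 against 8.28 ± 1.16 FPKM, SD, n = 2), and the difference passed the test (-1.05 ± 0.28, limma adjusted p = 0.039). That is 1 of 8 members lower, against 4.35% of all genes lower, and 0 of 8 higher, against 6.14%. The Cxxc1-null pair lay so for 26.4% of all genes at this stage. The call was lost without any 1 of the 4 meiosis II libraries or of the 2 Cxxc1-null pachytene libraries (differences of -0.92 to -1.18, limma adjusted p = 0.061 to 0.21), with a common median (limma adjusted p = 0.065) and in a fit of the meiosis II libraries alone (limma adjusted p = 0.083). In pachytene the genotypes overlapped (-0.03 ± 0.28, 95% interval -0.64 to 0.59), and so they did in diplotene (-0.32 ± 0.28, interval -0.93 to 0.30). The difference averaged over stages was -0.46 ± 0.16 (interval -0.82 to -0.11) and did not pass (limma adjusted p = 0.074). That average passed in 2 of 21 alternatives, among them the replicate term across all libraries (limma adjusted p = 0.044). A test of whether the meiosis II value differed from that of pachytene did not pass (-1.02 ± 0.39, limma adjusted p = 0.32). In that test 0 of 8 members were called, against 0.0309% of all genes, and Mybl1 was the 1 member at an unadjusted p under 0.05, among 1648 genes. Marker genes also differed at this stage, where 26.4% of all tested genes lay wholly lower in Cxxc1-null and 30.1% wholly higher. Of 10 spermatocyte markers 4 (Sycp2, Mlh3, Hist1h1t and Ovol2) lay wholly lower in Cxxc1-null meiosis II and 1 (Syce1) higher, with sums of 1104 to 1134 FPKM in WT and 1309 to 1321 in Cxxc1-null. Mlh3, a mismatch repair gene of meiotic crossovers, was called lower, at 6.59 and 4.64 against 1.89 and 1.70 FPKM (-1.23 ± 0.24, limma adjusted p = 0.013). Of 10 round spermatid markers 5 lay wholly lower and 0 higher, with sums of 7409 to 10642 FPKM in WT and 2091 to 4711 in Cxxc1-null. Of 9 Sertoli markers 4 lay wholly lower and 0 higher, with sums of 214 to 284 and 205 to 209 FPKM. Spermatogonial markers went the other way, with 4 of 10 wholly higher and 0 lower. Their sums were 13.4 to 14.8 FPKM in WT and 17.0 to 21.5 in Cxxc1-null. Leydig markers had 1 of 8 higher and 3 lower, and peritubular, endothelial and blood markers 3 of 10 higher and 2 lower. The part of these differences in the Mybl1 result was not tested. Fewer cells that carry a transcript and less of it per cell cannot be told apart in such bulk libraries.

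Tcfl5, a factor needed for male meiosis in mice, stayed high through diplotene and then declined. It lay at 183 and 169 FPKM in WT pachytene, 174 and 217 in WT diplotene and 108 and 135 in WT meiosis II. Both WT meiosis II libraries lay below all 4 earlier WT libraries, and the step from diplotene passed (-0.68 ± 0.23, limma adjusted p = 0.036). In Cxxc1-null cells the levels were 174 and 180 FPKM in pachytene, 123 and 173 in diplotene and 91.2 and 119 in meiosis II. The same step gave -0.48 ± 0.23 there (limma adjusted p = 0.12). Under quantile normalization it passed in Cxxc1-null cells (-0.60, limma adjusted p = 0.048). The steps of the genotypes were not shown to differ (0.20 ± 0.33, limma adjusted p = 0.95). The WT call was lost without WT diplotene replicate 1 or 2, WT meiosis II replicate 1 or either Cxxc1-null pachytene library. In diplotene the Cxxc1-null pair lay wholly below the WT pair, with replicate 2 close to the lower WT library; 15.2% of all genes lay so. The genotype difference did not pass there (-0.41 ± 0.23, limma adjusted p = 0.50), nor in pachytene (0.01 ± 0.23) or meiosis II (-0.21 ± 0.23).

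Rfx2, a factor for the ciliary and flagellar genes of spermatids, was lowest in pachytene. Its levels were 34.1 and 67.4 FPKM in WT pachytene, 66.9 and 101 in WT diplotene, and 82.6 and 99.5 in WT meiosis II. In Cxxc1-null cells they were 39.2 and 44.0, 64.3 and 105, and 95.3 and 83.6 FPKM. WT pachytene replicate 2, a library that stands apart, lay with the diplotene libraries, while the Cxxc1-null pachytene and diplotene libraries did not overlap. The step from pachytene to diplotene was 0.76 ± 0.34 in WT (limma adjusted p = 0.13) and 0.97 ± 0.34 in Cxxc1-null cells (limma adjusted p = 0.059). Most alternatives did not pass either, with calls in 4 of 22 in WT and in 5 of 22 in Cxxc1-null cells. It passed with a common median in WT (0.97, limma adjusted p = 0.043) and in Cxxc1-null cells (1.08, limma adjusted p = 0.0285). It also passed in WT without WT pachytene replicate 2 (1.24, limma adjusted p = 0.022) and without both libraries that stand apart (limma adjusted p = 0.013), and in Cxxc1-null cells without either WT pachytene library (limma adjusted p = 0.025) and with a replicate term across all libraries (limma adjusted p = 0.023). With a replicate term within genotype it passed in WT (limma adjusted p = 0.041) and in Cxxc1-null cells (limma adjusted p = 0.016). The genotypes overlapped at all 3 stages, and the difference averaged over stages was -0.08 ± 0.20, with a 95% interval of -0.52 to 0.37.

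Sox30, whose loss in mice stops round spermatids early, differed little between groups. It lay at 22.0 and 28.1 FPKM in WT pachytene, 18.5 and 22.4 in WT diplotene and 29.3 and 30.5 in WT meiosis II. In Cxxc1-null cells it lay at 17.5 and 25.8, 13.8 and 22.6, and 22.4 and 32.7 FPKM. Replicate 2 was the higher in all 6 groups, in the Cxxc1-null groups by more than these differed from WT, and no neighbouring pair of the 6 groups was free of overlap. Neither the step from diplotene to meiosis II (0.53 ± 0.30 in WT and 0.58 ± 0.30 in Cxxc1-null cells, limma adjusted p = 0.17 and 0.14) nor the averaged genotype difference (-0.18 ± 0.17, interval -0.56 to 0.20) passed. Most alternatives did not pass the step either, with calls in 2 of 22 in WT and in 3 of 22 in Cxxc1-null cells. The step passed with a replicate term within genotype (limma adjusted p = 0.0265 in WT and 0.0186 in Cxxc1-null cells) and with one across all libraries (limma adjusted p = 0.046 and 0.033), and in Cxxc1-null cells without both libraries that stand apart (0.92, limma adjusted p = 0.048).

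Crem, the activator of haploid genes, was already abundant in pachytene. It lay at 182 and 117 FPKM in WT pachytene, 155 and 126 in WT diplotene, and 201 and 205 in WT meiosis II. In Cxxc1-null cells the levels were 171 and 154, 137 and 140, and 193 and 238 FPKM. All 4 meiosis II libraries lay above the 8 earlier ones, yet the step from diplotene just missed the threshold in Cxxc1-null cells (0.63 ± 0.24, limma adjusted p = 0.053) and missed it in WT (0.54 ± 0.24, limma adjusted p = 0.089). Both passed under quantile normalization (limma adjusted p = 0.035 and 0.034) and without either WT pachytene library (limma adjusted p = 0.018 and 0.033), and that of Cxxc1-null cells also with either replicate term. Calls of this step were made in only 3 of 22 alternatives in WT and in 5 of 22 in Cxxc1-null cells. The genotypes overlapped at every stage. The averaged difference was 0.07 ± 0.14, with an interval of -0.23 to 0.37.

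Fhl5, the LIM-domain coactivator of CREM, was the regulator that differed most between genotypes before meiosis II. In pachytene it lay at 17.98 and 6.79 FPKM in WT and at 35.0 and 38.2 in Cxxc1-null cells. In diplotene it lay at 4.27 and 5.28 in WT and at 8.11 and 27.2 in Cxxc1-null cells. All Cxxc1-null libraries of these stages lay above both WT libraries of their stage, at 295% of the WT mean in pachytene and 370% in diplotene, where the mean rests on replicate 2. In meiosis II the levels were 107 and 104 FPKM in WT and 77.1 and 161 in Cxxc1-null cells, and the WT libraries lay between the Cxxc1-null ones. Neither stage passed on its own (1.63 ± 0.55, limma adjusted p = 0.30, in pachytene and 1.48 ± 0.55, limma adjusted p = 0.26, in diplotene), and nor did meiosis II (0.08 ± 0.55). In pachytene 0 of 8 members were called by limma, against 0.355% of all genes, and in diplotene 0 of 8, against 0.787%; at an unadjusted p under 0.05 Fhl5 was the 1 member at either stage, among 1388 and 1747 genes. Having both Cxxc1-null libraries above both WT ones was common, at 24.1% of all genes in pachytene and 30.4% in diplotene. Members numbered 1 of 8 and 2 of 8 there, the other being Zmynd15 in diplotene. In pachytene 0 of 8 had both Cxxc1-null libraries lower, against 13.3%, and in meiosis II 0 of 8 had both higher, against 30.1%.

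Averaged over the 3 stages Fhl5 was higher in Cxxc1-null cells (1.06 ± 0.32, limma adjusted p = 0.046). It was the 1 of 8 regulators called higher in that contrast, against 11.5% of all genes, and 0 of 8 were called lower, against 5.13%. The call was lost without either Cxxc1-null pachytene library, without either WT diplotene or either WT meiosis II library, and without WT pachytene replicate 2, Cxxc1-null diplotene replicate 2 or Cxxc1-null meiosis II replicate 2 (0.79 to 1.10, limma adjusted p = 0.081 to 0.12). It was also lost with no filter on low values (limma adjusted p = 0.082), under quantile normalization (limma adjusted p = 0.055) and with a common median (limma adjusted p = 0.052). Without both libraries that stand apart the difference was 0.57 (limma adjusted p = 0.11), and with stages joined by replicate number the adjusted p was 0.12. In diplotene alone the difference was 0.66 without Cxxc1-null replicate 2 and 2.30 (limma adjusted p = 0.044) without Cxxc1-null replicate 1; in pachytene it was 0.98 without WT replicate 2. The pachytene and meiosis II differences were not shown to differ (-1.55 ± 0.78, limma adjusted p = 0.44), nor were those of diplotene and meiosis II (-1.40 ± 0.78, limma adjusted p = 0.69). By an F test of all 3 stages 0 of 8 members differed between stages in their genotype difference, against 0.054% of all genes (0.0232% for diplotene against pachytene alone), and 0 of 8 did so at an unadjusted p under 0.05, against 1136 genes.

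Marker genes went in both directions in these libraries. Both Cxxc1-null libraries lay above both WT ones for 24.1% of all tested genes in pachytene and 30.4% in diplotene. They lay below for 13.3% and 15.2%. Of the 10 round spermatid markers, 5 (Acrv1, Hils1, Tssk1, Tssk2 and Catsper3) lay higher in both Cxxc1-null than in both WT pachytene libraries and 2 (Prm2 and Spem1) lower, with sums of 1993 to 2238 FPKM in WT and 1466 to 2185 in Cxxc1-null; none was at 0. In diplotene 2 of 10 (Acrv1 and Catsper3) lay higher and 0 lower, with sums of 373 to 817 FPKM in WT and 168 to 885 in Cxxc1-null. The Cxxc1-null pachytene libraries had r = 0.806 and 0.817 with the WT meiosis II mean, above 0.766 and 0.788 in WT. Markers of other cells are to be read beside those shares as well. In Cxxc1-null pachytene 4 of 9 Sertoli markers (Sox9, Wt1, Clu and Aard) lay wholly higher and 0 lower, with sums of 8.04 to 23.1 FPKM in WT and 27.0 to 27.1 in Cxxc1-null. Sox9 and Wt1 stayed under 1 FPKM in every pachytene library. Of 10 peritubular, endothelial and blood markers 4 lay higher and 0 lower there, with sums of 3.73 to 4.77 and 7.66 to 8.67 FPKM. Of 8 Leydig markers 3 lay higher and 2 lower. In diplotene 6 of 10 spermatogonial markers lay higher and 1 lower, with sums of 7.61 to 10.5 FPKM in WT and 12.2 to 15.7 in Cxxc1-null, 3 of 9 Sertoli markers lay higher and 0 lower, and 5 of 8 Leydig markers lower and 0 higher. The part of these measures in the Fhl5 result was not tested.

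**Figure D3:**
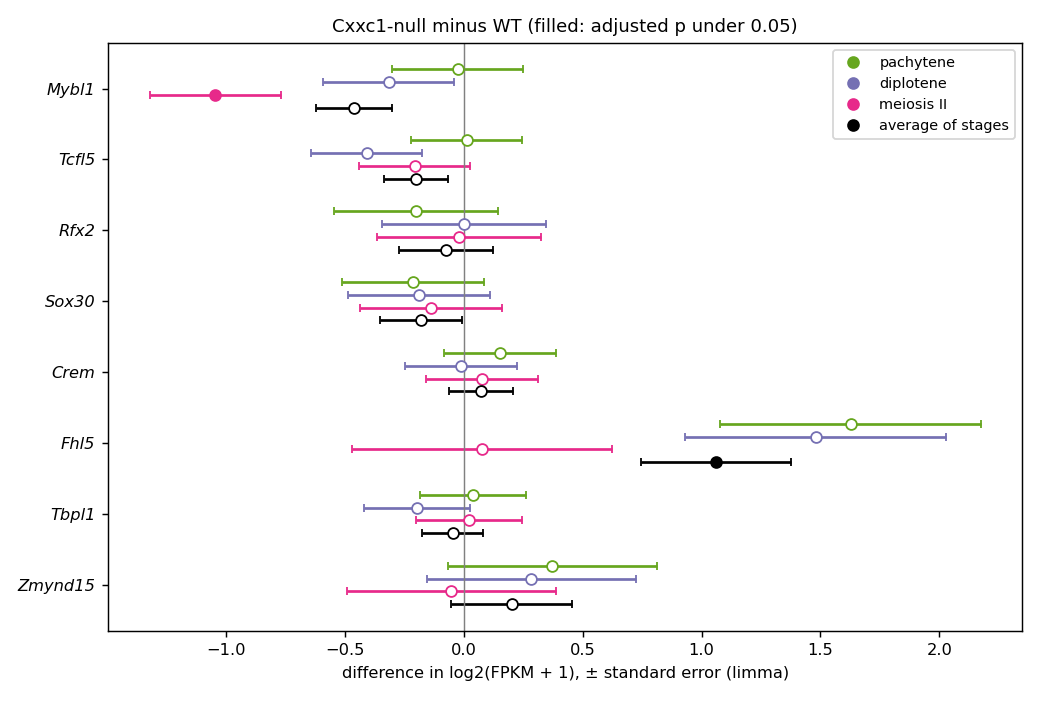
Cxxc1-null minus WT differences in log2(FPKM + 1) (x axis, ± standard error from limma) for each regulator at 3 stages and as their average; filled dots have an adjusted p under 0.05. The filled dots are Mybl1 in meiosis II (-1.05) and the stage average of Fhl5 (1.06), while Fhl5 in pachytene and diplotene has the largest values with the widest errors.

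From diplotene to meiosis II Fhl5 had the steepest change of the 8 regulators. It rose by 4.21 ± 0.55 in WT (limma adjusted p = 0.00017) and by 2.81 ± 0.55 in Cxxc1-null cells (limma adjusted p = 0.0023), and both calls held in all 22 alternatives run. The step before it was downward, at -1.08 ± 0.55 in WT and -1.23 ± 0.55 in Cxxc1-null cells, and did not pass (limma adjusted p = 0.17 and 0.12). Alternatives passed it in 1 of 22 in WT and in 3 of 22 in Cxxc1-null cells. With the 2 libraries that stand apart left out it passed in WT (-1.72, limma adjusted p = 0.011) and in Cxxc1-null cells (-2.04, limma adjusted p = 0.011). In Cxxc1-null cells it also passed without Cxxc1-null diplotene replicate 2 alone (limma adjusted p = 0.035) and with a replicate term within genotype (limma adjusted p = 0.047).

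Tbpl1, which encodes the TBP-like factor TRF2, had the highest mean of the 8 in every group. It lay at 226 and 171 FPKM in WT pachytene, 307 and 240 in WT diplotene, and 291 and 328 in WT meiosis II. In Cxxc1-null cells it lay at 231 and 176, 247 and 226, and 300.4 and 327 FPKM. The levels of all neighbouring groups overlap, and no step passed (limma adjusted p = 0.149 or above). The genotypes overlapped at each stage, with an averaged difference of -0.05 ± 0.13 and an interval of -0.33 to 0.24.

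Zmynd15, a repressor that acts with histone deacetylases in haploid cells, had the clearest stage pattern. It lay at 1.31 and 5.17 FPKM in WT pachytene, 20.8 and 22.0 in WT diplotene and 78.6 and 78.0 in WT meiosis II. In Cxxc1-null cells it lay at 5.41 and 2.72, 25.9 and 26.6, and 101 and 56.4 FPKM. The stages do not overlap in either genotype, and the WT mean of meiosis II was 24.2 times that of pachytene. The rise from pachytene to diplotene was 2.57 ± 0.44 in WT (limma adjusted p = 0.0037) and 2.48 ± 0.44 in Cxxc1-null cells (limma adjusted p = 0.0058). That from diplotene to meiosis II was 1.83 ± 0.44 (limma adjusted p = 0.0067) and 1.49 ± 0.44 (limma adjusted p = 0.019). The WT rise to diplotene was lost in a fit of those 4 libraries alone (limma adjusted p = 0.074), where 3 genes of all tested were called. The Cxxc1-null rise to diplotene was lost without Cxxc1-null pachytene replicate 2 (limma adjusted p = 0.0595). The Cxxc1-null rise to meiosis II was lost without either Cxxc1-null diplotene library or Cxxc1-null meiosis II replicate 1 (limma adjusted p = 0.061 to 0.14).

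Between genotypes Zmynd15 did not pass at any stage. In diplotene both Cxxc1-null libraries lay above both WT libraries, at 123% of the WT mean, but the difference was 0.28 ± 0.44 (limma adjusted p = 0.86). The averaged difference was 0.20 ± 0.25, with an interval of -0.37 to 0.77. Zmynd15 overlaps Cxcl16 in the RefSeq annotation, and the labels describe no strand information; Cxcl16 lay between 0.622 and 3.45 FPKM, a range that reaches the pachytene levels of Zmynd15, and reads of the overlap cannot be told apart. Col9a3, which overlaps Tcfl5, and Slc2a12, which overlaps Tbpl1, lay at or under 2.14 and 0.343 FPKM. The annotation also has overlaps of Fhl5 with LOC115489977, Crem with Gm6225, Rfx2 with Gm41604 and Tbpl1 with Mir7663, for which no values are given here; Mybl1 and Sox30 have none.

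By group means Crem, Rfx2, Tbpl1, Zmynd15, Fhl5 and Sox30 were highest in meiosis II in both genotypes, and Mybl1 and Tcfl5 before it. Of the 5 steps between neighbours in the order of the 6 groups, those of Zmynd15 from Cxxc1-null pachytene to WT diplotene (2.196 ± 0.44, limma adjusted p = 0.0054) and from Cxxc1-null diplotene to WT meiosis II (1.54 ± 0.44, limma adjusted p = 0.016) passed, as did that of Fhl5 from Cxxc1-null pachytene to WT meiosis II (1.51 ± 0.55, limma adjusted p = 0.034). For the other 6 regulators no neighbours in that order differed by the test. The order was taken from the same values, which favours small differences between neighbours, so these comparisons are only a description. Each pair that passed also differs in both stage and genotype, and no share of all genes was computed for them.

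Genes with the most similar pattern were sought for each member among 7852 tested genes with a mean of at least 5 FPKM, by Pearson's r of log2(FPKM + 1) over the 12 libraries, which share their stage and scaling. Fhl5 was followed most closely by Spata19, a mitochondrial protein gene of spermatids (r = 0.996), and by 1700085B03Rik (r = 0.995). Spata19 lay at 71.5 and 30.7 FPKM in WT and 160 and 168 in Cxxc1-null pachytene, and at 15.0 and 25.2 in WT and 30.1 and 130 in Cxxc1-null diplotene. It thus had the same high library in Cxxc1-null diplotene as Fhl5. Zmynd15 was followed by Fdft1, the squalene synthase gene, and by the ubiquitin ligase gene Peli2 (r = 0.995 and 0.994). Rfx2 was followed by Agbl5, a tubulin deglutamylase gene, and the spindle pole gene Wdr62 (r = 0.986 and 0.978). Tbpl1 was followed by Rwdd2a and Ccdc83 (r = 0.970 and 0.944), and Mybl1 by the dynactin subunit gene Dctn4 and by Gm11818 (r = 0.965 and 0.947). Crem was followed by 1700012B09Rik and the co-chaperone gene Sugt1 (r = 0.958 and 0.940), Tcfl5 by the mitochondrial ribosome gene Mrpl53 and Bnip1 (r = 0.950 and 0.944), and Sox30 by Rffl and Rbbp6 (r = 0.941 and 0.909). Among the members themselves the highest r were 0.857 for Crem with Fhl5 and 0.844 for Rfx2 with Zmynd15.

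**Figure D4:**
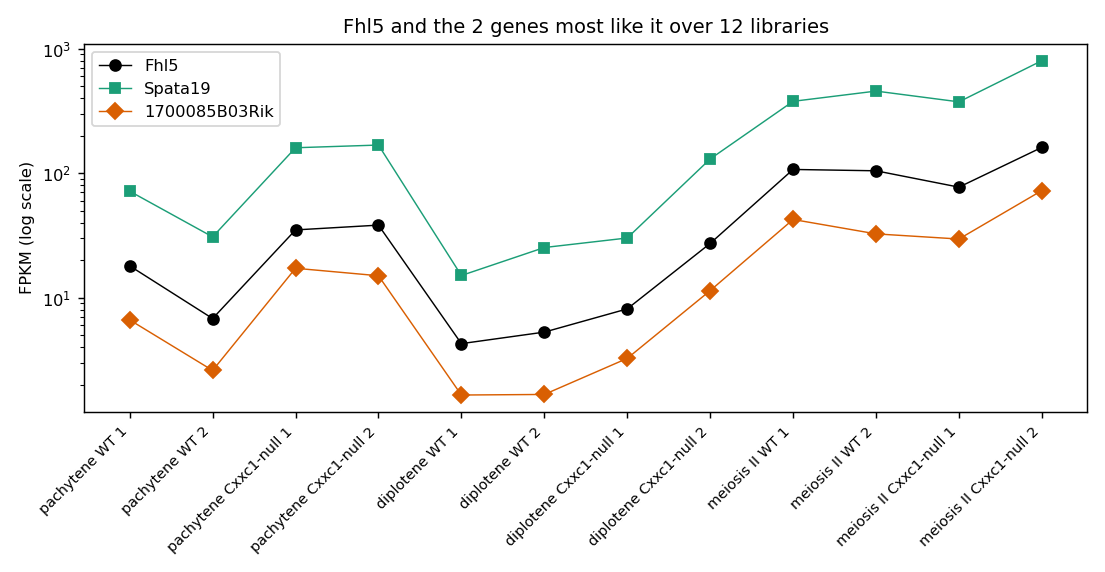
FPKM on a log scale (y axis) of Fhl5 and of Spata19 and 1700085B03Rik, the 2 genes most like it, in each of the 12 libraries (x axis; the number is the replicate, and lines only join the points of a gene). All 3 are higher in the Cxxc1-null than the WT libraries of pachytene and diplotene, with Cxxc1-null diplotene replicate 2 well above replicate 1, and all are highest in meiosis II.

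Partners and paralogues of the regulators came from a list of 24 genes, of which 20 were tested. This list and those below were chosen with earlier results of these data known. Their counts beside the background shares are therefore a description and no test. No gene of it passed in a genotype contrast of a single stage, at a median difference of 0.06 in pachytene, 0.13 in diplotene and -0.07 in meiosis II, against 0.04, 0.09 and 0.02 over all genes. Of all genes 0.355% were called in pachytene, 0.787% in diplotene, and 6.14% higher and 4.35% lower in meiosis II. These shares apply to the single stages of the lists below as well. Averaged over stages 1 of 20 rose and 1 fell, against 11.5% and 5.13% of all genes. Taf7l, a germ-cell TFIID subunit gene, rose (0.88 ± 0.18, limma adjusted p = 0.012), from stage means of 5.45, 0.670 and 12.2 FPKM in WT to 7.73, 2.77 and 27.7 in Cxxc1-null cells. Gtf2a1l, the germ-cell TFIIA subunit that pairs with TRF2, fell (-0.37 ± 0.11, limma adjusted p = 0.044), from 203, 378 and 562 FPKM to 170, 272 and 431. The call of Gtf2a1l was lost without both libraries that stand apart, and both were lost with stages joined by replicate number. In meiosis II alone Taf7l rose without those libraries, with a common median and under quantile normalization. From diplotene to meiosis II 7 of 20 rose and 3 fell in each genotype, against 26.1% and 18.9% of all genes in WT and 25.3% and 18.8% in Cxxc1-null cells. Named after their values were seen, Kif17, the motor that moves ACT out of the nucleus, rose by 3.22 ± 0.49 in WT, and Taf7, Gtf2a1 and Sirt1 were the 3 that fell there (-1.29 ± 0.24, -1.33 ± 0.32 and -1.16 ± 0.25).

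Of 14 tested pachytene and piRNA genes that have been linked to A-MYB, 1 fell in Cxxc1-null meiosis II and 0 rose, against 4.35% and 6.14% of all genes. Of the 10 spermatocyte markers 4 lay wholly lower in Cxxc1-null meiosis II and 1 wholly higher. Their sums were higher, at 1309 to 1321 FPKM in Cxxc1-null against 1104 to 1134 in WT. The part of these markers in the values of the list was not tested. Tdrd5, a tudor-domain gene of the piRNA pathway, fell there from 9.63 ± 2.01 to 4.05 ± 0.47 FPKM (SD, n = 2; -1.06 ± 0.24, limma adjusted p = 0.023). The list median was -0.43 in meiosis II, against 0.02 over all genes, and -0.31 in pachytene and -0.14 in diplotene, where Mybl1 itself did not pass and 0 of 14 did. Averaged over stages 4 of 14 fell and 0 rose, against 5.13% and 11.5% of all genes, at a median of -0.26, against 0.05. As the list was chosen with earlier results known, these counts are only a description. Tdrd6, a scaffold of the chromatoid body, fell by 0.71 ± 0.15 (limma adjusted p = 0.012), Pou5f2, a germ-cell POU factor gene, by 0.72 ± 0.16 (limma adjusted p = 0.014), Piwil1, the PIWI gene of pachytene piRNAs, by 0.49 ± 0.13 (limma adjusted p = 0.034) and Tdrd5 by 0.50 ± 0.14 (limma adjusted p = 0.037). Without both libraries that stand apart Tdrd6 alone passed in the average, and Tdrd5 and Tdrd6 in meiosis II, and with stages joined by replicate number 0 of 14 did.

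Of 24 tested spermatid genes that have been linked to CREM, TRF2, SOX30 or ZMYND15, 0 passed in any single stage, with medians of 0.42 in pachytene, 0.79 in diplotene and -0.22 in meiosis II. Averaged over stages 4 rose and 1 fell, against 11.5% and 5.13% of all genes, at a median of 0.30. Catsper3, a sperm calcium channel gene, rose (1.32 ± 0.28, limma adjusted p = 0.012), from stage means of 3.52, 3.17 and 95.8 FPKM in WT to 15.7, 15.9 and 119 in Cxxc1-null cells. In the average Tsga8 rose by 1.02 ± 0.24 (limma adjusted p = 0.02), Spata19 by 1.27 ± 0.36 (limma adjusted p = 0.039) and the acrosome gene Acrv1 by 1.09 ± 0.31 (limma adjusted p = 0.037). For Acrv1 the stages went in opposite directions, with means of 14.8, 11.1 and 378 FPKM in WT and 55.2, 44.8 and 334 in Cxxc1-null cells. Tsga8 went from 22.8, 26.5 and 408 FPKM to 69.3, 67.1 and 489.8. The protamine gene Prm2 fell (-1.60 ± 0.44, limma adjusted p = 0.035), from 487, 150 and 1781 FPKM to 289, 63.55 and 379. Without both libraries that stand apart 2 rose (Catsper3 and Tsga8) and 5 fell (Prm1, Prm2, Spem1, Tnp1 and Tssk6); with stages joined by replicate number Catsper3 alone rose and Prm2 alone fell. In meiosis II, where 0 passed, 5 fell without those 2 libraries, although both come from earlier stages: Prm1, Prm2, Spem1, Tnp2 and Tssk6. There 1 fell with a common median (Tssk6) and 3 under quantile normalization (Prm1, Prm2 and Tssk6). In the average 3 and 4 fell under these scalings. From diplotene to meiosis II 22 of the 24 rose in WT, against 26.1% of all genes, and 21 in Cxxc1-null cells, against 25.3%. All 10 round spermatid markers described above belong to this list as well. Results of the markers and of the list therefore count the same genes and are not separate observations.

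Ciliary and flagellar genes of the kind that RFX factors bind had median genotype differences near 0. Of 24 tested, 0 passed in any single stage, with medians of -0.02, -0.04 and -0.03. Averaged over stages 1 fell and 0 rose, against 5.13% and 11.5% of all genes; it was the radial spoke gene Rsph9 (-0.59 ± 0.14, limma adjusted p = 0.017), which went from 268 ± 60.7 FPKM over 6 WT libraries to 176 ± 35.2 over 6 Cxxc1-null ones (SD). That call was lost with stages joined by replicate number, and Ttc25 fell as well with a common median and under quantile normalization. From pachytene to diplotene 7 of the 24 rose and 2 fell in WT, and 6 rose and 2 fell in Cxxc1-null cells, against 9.08% and 17.4% of all genes in WT and 11.9% and 17.4% in Cxxc1-null cells, with medians of 0.46 and 0.56, against -0.11 and -0.09 over all genes.

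**Figure D5:**
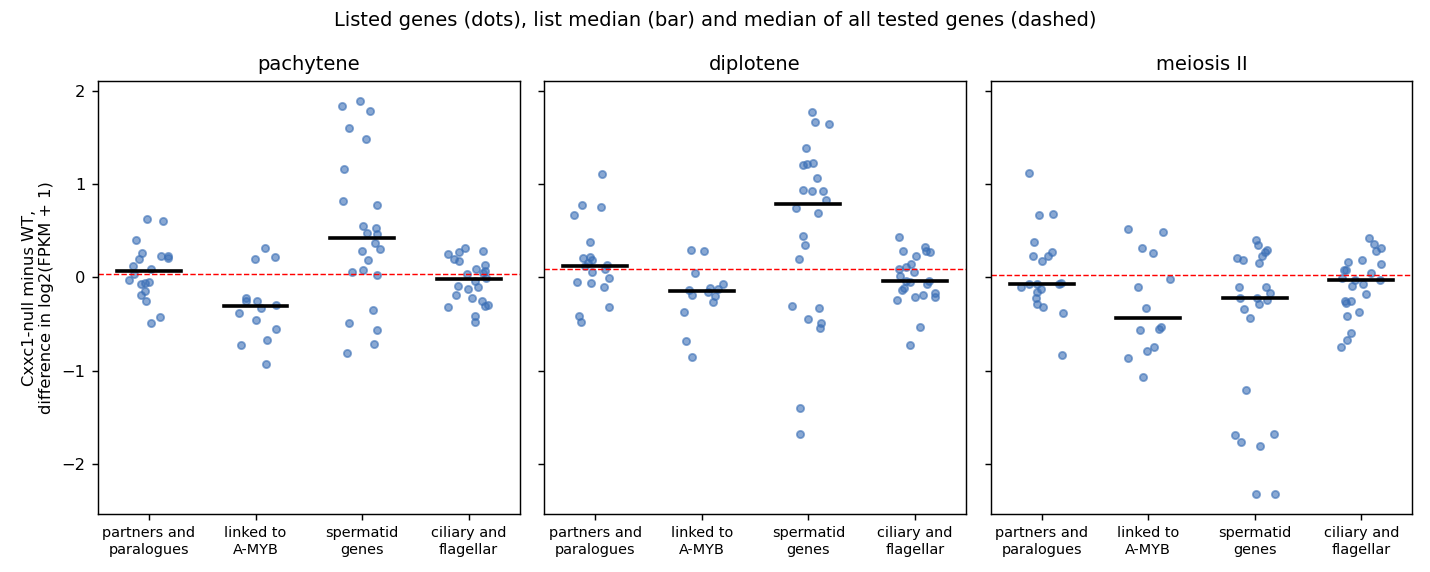
Cxxc1-null minus WT differences in log2(FPKM + 1) (y axis) of the tested genes of 4 lists (x axis) at each stage, with each gene as a dot, the list median as a bar and the median of all tested genes as a dashed line. The A-MYB list has medians of -0.31, -0.14 and -0.43, and the spermatid list goes from 0.42 and 0.79 in pachytene and diplotene to -0.22 in meiosis II, where a separate set of its genes lies below -1.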

How the data were processed

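Per the labels' protocols, RNA was copied from oligo-dT primers by Smart-seq2, which amplifies whole transcripts. The authors deposited 1 table of FPKM values for 23235 genes in 12 libraries. The submitters' processing notes name TopHat2 2.1.1, Cufflinks 2.2.1 and mm9; their roles are not stated there. No fragment totals came with the table, and ratios of the lowest values between libraries shared no common step, so no read counts were recovered and no count test was run. The 8 H3K4me3 libraries were not analysed here.

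Values were turned into log2(FPKM + 1), which understates changes of low genes. A gene was tested if 2 or more libraries reached 1 FPKM, which left 12956. A single model held all 12 libraries, with a mean per group, with 6 residual degrees of freedom and moderated variances with a trend (limma 3.58.1, R 4.3.3). It was also run on data simulated with independent normal noise at its own variances. Such data meet the model's assumptions by design, so that run does not test them. Calls have a Benjamini-Hochberg adjusted p under 0.05. Named are the 8 members, the 2 genes most like each by r, up to 4 called genes per list with the smallest p in the meiosis II and averaged genotype contrasts, and Cxxc1. Kif17, Taf7, Gtf2a1 and Sirt1, the marker genes, and genes called only under an alternative were named after their values were seen. The members, lists and tests were chosen with earlier results of these data known. For gene overlaps, RefSeq's GRCm38.p6 annotation was used, which differs in build from the authors' mm9. Alternatives varied the pseudocount, filter, scaling, fit and libraries.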

Additional observations from a re-analysis of the deposited data

How the results depend on the processing

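In all, 21 settings or left-out libraries beside the main one were run for most results. Away from leave-one-out, the differences of single genes kept their direction and side of the threshold in 555 cases, passed newly in 24, were lost in 8 and reversed in 21; with 1 library left out these numbers were 691, 12, 24 and 41. No reversed value was a call. The cause of these changes was not tested.

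Counts of members called under an alternative are given here without the share of all genes called under it. They therefore show no change particular to the members. The number of members called in meiosis II between genotypes went from 1 to 0 with a common median and to 0 in a separate fit. Averaged over stages it went from 1 to 0 with no filter, under quantile normalization, with a common median and without both libraries that stand apart. From pachytene to diplotene in WT it went from 1 to 2 with a common median, 0 in a separate fit and 3 without both libraries. In Cxxc1-null cells it went from 1 to 2 with a common median and 2 without both libraries. From diplotene to meiosis II in Cxxc1-null cells it went from 2 to 5 under quantile normalization. With 1 library left out the counts ran from 0 to 1 for the diplotene, meiosis II and averaged genotype contrasts, 1 to 2 and 0 to 2 from pachytene to diplotene in WT and Cxxc1-null cells, and 2 to 4 and 1 to 4 from diplotene to meiosis II.

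The labels do not say that replicate numbers mark a shared animal or day. Deviations of same-numbered libraries correlated at -0.253 to 0.42 over the 15 pairs of groups. Between stages of the same genotype all values were above 0.1, at 0.17 to 0.314 in WT and 0.116 to 0.42 in Cxxc1-null cells. Between genotypes they were -0.0659, 0.321 and 0.109 within a stage and -0.253 to 0.191 across stages. Values above 0.1 thus occurred between genotypes too, so the data give only a weak hint of shared numbers within a genotype. With 2 numbers a group the main fit kept no block, and the steps that pass with the block within genotype are given beside their genes. With the replicate block the averaged genotype count went from 1 to 2 members (Mybl1 joining Fhl5), and to 0 with the block made by joining stages. The replicate block gave 2 members from pachytene to diplotene and 5 from diplotene to meiosis II in Cxxc1-null cells. The block within genotype gave 4 and 5 there, and 2 from pachytene to diplotene in WT. These counts too stand without the share of all genes called with the same block.

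Quantile normalization reversed the genotype differences of Tbpl1 (-0.0157) and Tcfl5 (-0.054) in pachytene, Rfx2 (-0.061) in diplotene, and Crem (-0.042), Tbpl1 (-0.11) and Fhl5 (-0.0014) in meiosis II, and the WT step of Mybl1 to meiosis II (-0.22). A common median, which moved the median of all genes by 0.205 and -0.297 at the WT steps, by -0.132 in diplotene between genotypes and by 0.115 and -0.111 at the Cxxc1-null steps, reversed Tbpl1 (-0.0047), Tcfl5 (-0.032) in pachytene, Rfx2 in diplotene (-0.13) and meiosis II (0.032), Crem from pachytene to diplotene in WT (0.14), and Mybl1 (-0.25), Rfx2 (-0.15) and Tbpl1 (-0.11) from diplotene to meiosis II in WT. Without both libraries that stand apart Crem (-0.17), Rfx2 (0.28), Tbpl1 (-0.16) and Tcfl5 (-0.043) reversed in pachytene, Rfx2 in diplotene (-0.35) and Crem in the average (-0.040).

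With 1 library left out, genotype differences in pachytene ran from -0.35 to 0.30 for Mybl1, -0.17 to 0.47 for Crem, -0.69 to 0.28 for Rfx2, -0.16 to 0.24 for Tbpl1, -0.48 to 0.053 for Sox30, -0.043 to 0.064 for Tcfl5 and -0.34 to 1.08 for Zmynd15. In diplotene they ran from -0.16 to 0.14 for Crem, -0.35 to 0.35 for Rfx2 and -0.53 to 0.15 for Sox30. In meiosis II they ran from -0.077 to 0.23 for Crem, -0.15 to 0.11 for Rfx2, -0.067 to 0.11 for Tbpl1, -0.40 to 0.12 for Sox30, -0.47 to 0.36 for Zmynd15 and -0.45 to 0.60 for Fhl5. Averaged they ran from -0.035 to 0.18 for Crem, -0.24 to 0.085 for Rfx2, -0.11 to 0.020 for Tbpl1 and -0.036 to 0.44 for Zmynd15. Steps from pachytene to diplotene ran from -0.38 to 0.26 for Crem and -0.013 to 0.30 for Tcfl5 in WT and -0.59 to 0.086 for Sox30 in Cxxc1-null cells. Steps from diplotene to meiosis II ran from -0.22 to 0.31 for Mybl1 and -0.15 to 0.43 for Rfx2 in WT and -0.23 to 0.47 for Rfx2 in Cxxc1-null cells. Where a group was left with 1 library, it was assumed to vary like the others. The depth of the libraries is unknown and limits low values, those of Mybl1, Zmynd15 and Fhl5 among them.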
